A study of Mus musculus with 1 sample.

Results

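The 5 genes examined here handle zinc and other metals in the cell: the metallothioneins Mt1 and Mt2, the zinc exporter Slc30a1 (ZnT1), the zinc importer Slc39a4 (ZIP4) and Mtf1, the metal-responsive transcription factor. They were found by symbol among the 32285 genes of the count matrix, and all 5 were present. The genes had been selected on measured values of these same cells, in which Mt1 stood out for its level and its uneven spread, so the values below are descriptions and support nothing about that choice. The data came from 1 library of mouse gastric organoids, which are hollow epithelial cultures. By their labels the cells were wild type, untreated and epithelial, with stomach as the source. Cells were harvested 7 days after seeding and separated with trypsin-EDTA. Strain, age and the number of animals or cultures behind the library are not given in the sources used here. Of 1991 barcodes, 1892 were kept as cells because they had 500 or more detected genes and no more than 20% of their gene counts from mitochondrially encoded genes. With 1 library and no replicate there was no test, and every interval below is a 95% interval for counting error only.

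Metallothioneins are small proteins rich in cysteine that bind zinc and copper and buffer their free levels. When free zinc rises, MTF1 enters the nucleus and binds metal response elements, short DNA motifs, in the promoters of Mt1, Mt2 and Slc30a1. SLC30A1 moves zinc out across the plasma membrane, and SLC39A4 takes zinc up at the apical membrane of absorptive epithelium. Metallothionein genes also respond to glucocorticoids, oxidative stress and low oxygen in many cell types.

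Mt1 (ENSMUSG00000031765) lies at chr8:94179082-94180327 on the plus strand of GRCm38, and Mt2 (ENSMUSG00000031762) lies at chr8:94172664-94173568 on the same strand, 5513 bases upstream. Mt3 and Mt4, the other genes of the family, lie further upstream in the same orientation. Slc30a1 (ENSMUSG00000037434) lies at chr1:191906767-191913247 on the plus strand, Slc39a4 (ENSMUSG00000063354) at chr15:76612383-76617384 on the minus strand, and Mtf1 (ENSMUSG00000028890) at chr4:124802104-124849800 on the plus strand. All 5 are annotated as protein-coding in GENCODE release M21, and the counts cover whole genes.

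Mt1 and Mt2 varied together from cell to cell, as described below, and Slc30a1, named as a target of the same factor, showed no such relation at this depth. Their promoter windows are therefore shown. They run from 250 bases before to 50 bases after the gene start in RefSeq (GRCm38.p6), 5′ to 3′ on the plus strand, which is the coding strand of all 3 genes. Capitals mark matches to the core of the metal response element, searched as TGCACNC or TGCGCNC on both strands, and no match overlapped another.
Mt1 promoter, chr8:94178839-94179138: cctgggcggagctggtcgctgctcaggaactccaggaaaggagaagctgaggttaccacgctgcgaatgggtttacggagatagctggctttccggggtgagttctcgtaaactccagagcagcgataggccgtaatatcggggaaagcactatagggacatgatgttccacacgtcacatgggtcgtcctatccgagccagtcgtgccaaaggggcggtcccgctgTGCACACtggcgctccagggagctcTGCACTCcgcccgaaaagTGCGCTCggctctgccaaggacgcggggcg
Mt2 promoter, chr8:94172368-94172667: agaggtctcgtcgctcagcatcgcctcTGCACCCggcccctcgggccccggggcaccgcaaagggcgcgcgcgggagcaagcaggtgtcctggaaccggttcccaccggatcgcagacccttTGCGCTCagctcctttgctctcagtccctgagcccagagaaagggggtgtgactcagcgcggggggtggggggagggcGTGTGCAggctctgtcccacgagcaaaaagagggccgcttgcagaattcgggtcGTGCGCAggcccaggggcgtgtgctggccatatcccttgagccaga
Slc30a1 promoter, chr1:191906531-191906830: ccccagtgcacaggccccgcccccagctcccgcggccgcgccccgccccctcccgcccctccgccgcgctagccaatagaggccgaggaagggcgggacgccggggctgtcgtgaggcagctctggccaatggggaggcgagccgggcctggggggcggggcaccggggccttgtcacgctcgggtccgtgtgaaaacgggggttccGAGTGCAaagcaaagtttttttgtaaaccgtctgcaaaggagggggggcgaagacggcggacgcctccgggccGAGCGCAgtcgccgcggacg
The Mt1 window held 3 matches, the Mt2 window 4 and the Slc30a1 window 2, and the window of Mtf1 held 0. Positions count from 1 at the RefSeq start, with negative numbers upstream. In Mt1 the matches began at -23, 3 and 21, all on the coding strand, and in Mt2 at -223, -128, -50 and 5, of which the last pair lay on the opposite strand. Both Slc30a1 matches, at -43 and 31, lay on the opposite strand. Among 32851 RefSeq windows of the same length, 25.7% held at least 1 match, 7.11% at least 2, 1.97% at least 3 and 0.518% at least 4. A match describes letters and shows neither binding nor use of that start, since counts from the 3′ end of a transcript do not show where it begins.

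The library held 20118334 gene counts in the kept cells, each a unique molecular identifier (UMI) that stands for 1 captured RNA molecule. Depth per cell ran from 890 to 47183 gene UMIs around a median of 8512.5, and the median cell had 2220 detected genes. Levels are given in CPM: summed UMIs of a gene, divided by all gene UMIs of the same cells, times 1000000. A transcript is counted once at its 3′ end, so levels of different genes were compared per molecule and not scaled by length, and capture can still differ between genes. The labelled epithelial identity was checked with Epcam and Krt8, which were detected in 96.6% and 97.9% of cells. The immune marker Lyz2 was detected in 0.476% of cells, and Ptprc, Cd3e and Col1a1 in 0.0529% each. RNA free in the droplets was not estimated, and no cell group that should lack Mt1 was available to measure it.

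Mt1 was one of the more abundant transcripts and Mt2 was present at a much lower level, while the exporter, the importer and the transcription factor were each rare. Mt1 had 36863 UMIs, or 1832 CPM (1814 to 1851), and ranked 109 by UMIs among 16967 genes with a UMI. Mt2 had 3331 UMIs, or 165.6 CPM (160 to 171), and ranked 681. Both encode metallothioneins that occur in most tissues. Mtf1 had 261 UMIs, or 13.0 CPM (11.5 to 14.7). Slc30a1 had 183 UMIs, or 9.10 CPM (7.83 to 10.51), and Slc39a4 had 150 UMIs, or 7.46 CPM (6.31 to 8.75). In this order only the neighbours Slc30a1 and Slc39a4 had overlapping intervals.

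Detection followed the levels. Mt1 had a UMI in 97.7% of cells (96.9% to 98.3%) and Mt2 in 51.7% (49.4% to 54.0%). Mtf1 was detected in 12.4%, Slc30a1 in 8.62% and Slc39a4 in 6.29% of cells. These shares depend on depth, so each cell was also thinned to 3000 randomly drawn UMIs, which left out 57 shallower cells and kept 1835. At that equal depth Mt1 was detected in 88.3% of cells and Mt2 in 26.1%, against 3.49% for Mtf1, 2.78% for Slc30a1 and 1.58% for Slc39a4. For the last 3 genes most cells without a UMI cannot be told from cells with little transcript at this depth.

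The rest of the pathway was low too. Mt3, best known from brain, had 675 UMIs, or 33.6 CPM, in 16.1% of cells, which placed it between Mt2 and Mtf1. Mt4, known from stratified squamous epithelium, had 0 UMIs in the 1892 cells, a count that by the limit of 3 counts leaves room for 0.159% of cells with a UMI. Among the zinc exporters Slc30a9 was highest (35.2 CPM), followed by Slc30a7 (11.2 CPM), and Slc30a8 and Slc30a10 had 0 UMIs. Among the importers Slc39a7, which releases zinc from the secretory pathway, was highest (34.1 CPM), followed by Slc39a1 (20.03 CPM) and Slc39a10 (11.9 CPM). Slc39a4 was thus lower than these importers, and its interval overlapped those of Slc39a8 (6.61 CPM), Slc39a11 (7.75 CPM), Slc39a6 and Slc39a14 (8.55 CPM each), Slc39a9 (9.15 CPM) and Slc39a3 (10.04 CPM).

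The matrix also carries multiplexing tags, oligonucleotides that mark the cells of a suspension before pooling, and no label links a tag to a suspension. Tag CMO301 was highest in 1062 cells and CMO302 in 830 cells. Mt1 was at 1865 CPM (1840 to 1890) in the first set and 1792 CPM (1764 to 1820) in the second. Mt2 was at 176 CPM (169 to 184) and 152 CPM (144 to 161). For both genes the intervals of the sets did not overlap, but they cover counting error only. Over cells, the variance of the deposited UMIs was 54.8 times the mean for Mt1 and 13.8 times for Mt2. Whether the sets differ beyond the spread between cells was not tested. In the 99 barcodes left out by the filter Mt1 was at 1391 CPM (1187 to 1621) and Mt2 at 320 CPM (227 to 440), from 165 and 38 UMIs.

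The most marked feature of Mt1 was its uneven spread over cells. Mt1 ranged from 0 to 324 UMIs per cell as deposited, with a median of 8, quartiles of 4 and 20, and a 90th percentile of 44. As a share of the gene UMIs of a cell, it ranged from 0 to 12.4% with a median of 0.0948%. Only 44 cells had no Mt1 UMI, and their median depth was 5339 UMIs. Nearly every cell had a Mt1 UMI and a minority had many times the median, although low counts cannot be told from RNA free in the droplets.

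Thinning to equal depth left this spread in place. Mt1 then had a mean of 5.91 and a median of 3 UMIs per cell, with quartiles of 1 and 6, a 90th percentile of 14 and a highest value of 119. The 10% of cells with most Mt1 held 48.8% of its thinned UMIs. Mt2 had a mean of 0.478 UMIs, a median of 0 and a highest value of 21, and its top 10% of cells held 66.4% of the UMIs. Mt2 was therefore concentrated in few cells as well, although part of that share follows from its low mean.

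**Figure D1:**
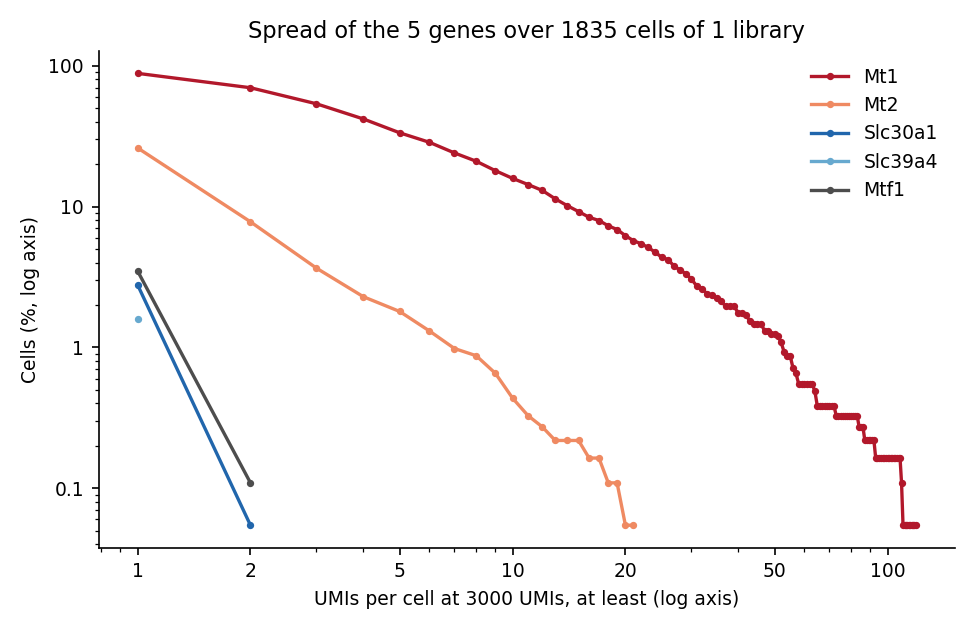
Share of cells (y axis, percent, log scale) with at least the number of UMIs on the x axis (log scale), for each of the 5 genes in 1835 cells thinned to 3000 UMIs. The Mt1 line runs out to 119 UMIs and the Mt2 line to 21, while Slc30a1 and Mtf1 end at 2 UMIs and Slc39a4 at 1.

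The Fano factor, the variance of the UMIs per cell divided by their mean, is 1 when only random sampling spreads the counts. It was 16.9 for Mt1 and 3.98 for Mt2, and 9.80 for Mt1 without the cells of cluster 4, a shallow cluster described below. The share of genes with a Fano factor above 2 was 2.47% of 5017 genes with a mean of at least 0.05 UMIs, and both metallothioneins belonged to it. Mt1 ranked 8 and Mt2 ranked 42 among them. Genes of a mean like that of Mt1 numbered 56, with a median Fano factor of 1.77, and 1 of them, the secretoglobin gene Scgb3a1 at 36.1, exceeded Mt1. For Mt2 there were 552 genes of like mean with a median of 1.08, and 5 exceeded it. Some genes ranked above Mt1 owed their place to a single cell, such as B020031M17Rik with 96.7% of its UMIs in 1 cell, whereas the highest cell held 0.879% of all Mt1 UMIs and 2.01% of all Mt2 UMIs.

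**Figure D2:**
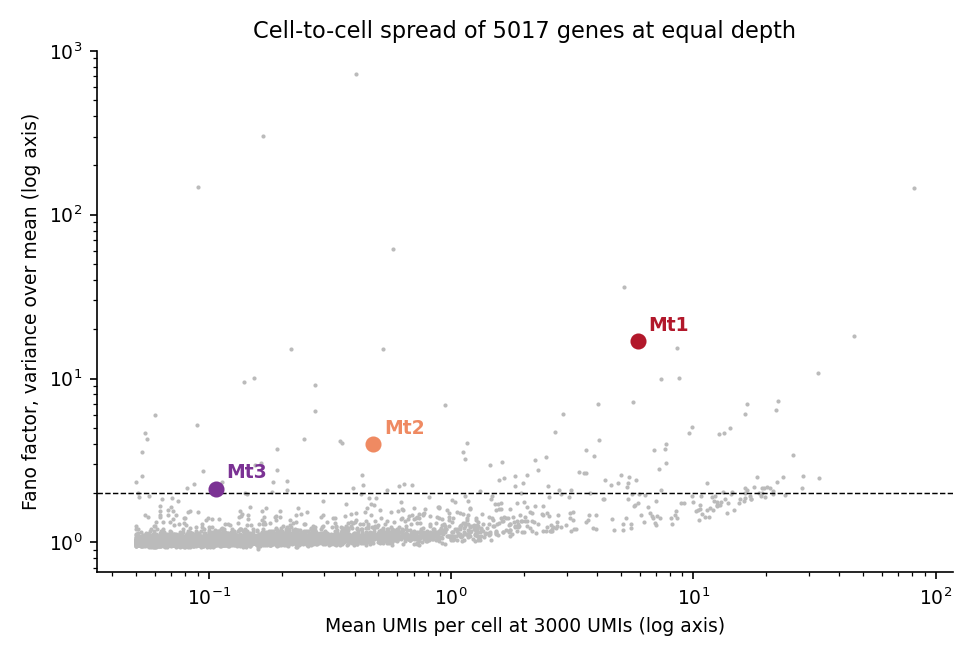
Fano factor (y axis, log scale) against mean UMIs per cell (x axis, log scale) for 5017 genes in 1835 cells thinned to 3000 UMIs, with the metallothioneins in colour and a dashed line at a Fano factor of 2. Mt1 lies at 16.9 and Mt2 at 3.98, both well above most genes of like mean, and Mt3 lies at 2.12, close to the line.

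The 3 rare genes showed no such spread. At equal depth their Fano factors were 1.01 for Slc30a1, 0.985 for Slc39a4 and 1.02 for Mtf1, all near the value from sampling alone. Their means were below 0.05 UMIs per cell, so they were not ranked. As deposited, no cell had more than 3 UMIs of Slc30a1 or Mtf1, and 1 cell had 6 of Slc39a4. At means this low, unequal levels between cells are hard to see in a Fano factor, so these values do not show that the genes were evenly expressed.

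The cells at the top of the Mt1 range differed in depth. The 5 cells with most Mt1 UMIs had 274 to 324, and also 42 to 67 Mt2 UMIs, and all 5 belonged to a cluster led by Cyba that is described below. The cell with the largest share had 234 Mt1 and 40 Mt2 UMIs among only 1888 gene UMIs, so that Mt1 made up 12.4% of its RNA, and its mitochondrial share was 0.848%. The 20 cells with the largest shares had a median depth of 5498 UMIs, and all 20 had a Mt2 UMI.

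Mt1 and depth were related: the shallowest cells had the highest Mt1 level in CPM. Cells were ordered by gene UMIs and divided into 4 depth groups of 473 cells, with 890 to 6086 UMIs in the shallowest and 13619 to 47183 in the deepest. From the shallowest to the deepest group Mt1 was at 2748, 1658, 1763 and 1723 CPM. The shallowest group was thus set apart from the other 3, which lay close together, and no steady slope ran through all 4.

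The ratio of the shallowest to the deepest group was 1.59 for Mt1 (1.55 to 1.64), and 0.965 without the cells of cluster 4. Of 8652 genes with at least 100 UMIs, 2.23% were at least 1.5-fold higher in the shallowest group and 10.3% at least 1.5-fold lower, and 1 of the 5 genes, Mt1, was in the first group and none was in the second. Mt1 ranked 118 from the top, and the median ratio over these genes was 0.943. For Mt2 the ratio was 1.08 (0.968 to 1.21). For Mtf1 it was 1.03 (0.664 to 1.56), for Slc30a1 0.788 (0.449 to 1.31) and for Slc39a4 0.739 (0.387 to 1.31), with 29, 18 and 14 UMIs in the shallowest group. The intervals of these 4 genes held 1, and those of the 3 rare genes were too wide to tell a ratio of 1 from one of 1.3. Of 10 importers measured, 2 had a ratio past 1.5-fold, both downward, Slc39a6 at 0.597 (0.297 to 1.096), an interval that held 1, and Slc39a8 at 0.487 (0.215 to 0.970). Of 6 exporters none passed 1.5-fold either way.

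The contrast was smaller for the median cell than for summed UMIs. The median cell had a Mt1 level of 1175 CPM in the shallowest group and 814, 913 and 992 CPM in the next 3, a ratio of shallowest to deepest of 1.18 on this measure. Narrower groups gave a larger contrast. Among 10 depth groups, the shallowest had 3796 CPM of Mt1 and the deepest 1468 CPM, while Mt2 was at 253 CPM (215 to 296) and 159 CPM. The cell with the largest Mt1 share was in this shallowest group and held 40 of its 159 Mt2 UMIs. Without that cell the group had 3434 CPM of Mt1 and 190 CPM of Mt2, and the Mt2 ratio to the deepest group was 1.195 (0.977 to 1.451). Between the extremes of the 4 groups, the ratio without that cell was 1.53 for Mt1 (1.49 to 1.58). Genes past 1.5-fold were also more numerous between the extremes of 10 groups, 819 higher and 1682 lower, than of 4 groups, 193 and 891.

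The detection of every member was greater in deeper cells, and little of this trend was left at equal depth. Mt2 had a UMI in 39.5% of cells of the shallowest group and 70.2% of the deepest. Thinned to 3000 UMIs, the same shares were 30.1% and 27.3%. Mtf1 went from 5.71% to 22.4% as deposited, and from 2.16% to 3.81% when thinned. Mt1 went from 94.5% to 99.8%, and when thinned was highest in the shallowest group at 91.4%, against 84.8% to 89.2% in the others. The thinned values of the shallowest group rest on the 416 of its cells that had 3000 UMIs.

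**Figure D3:**
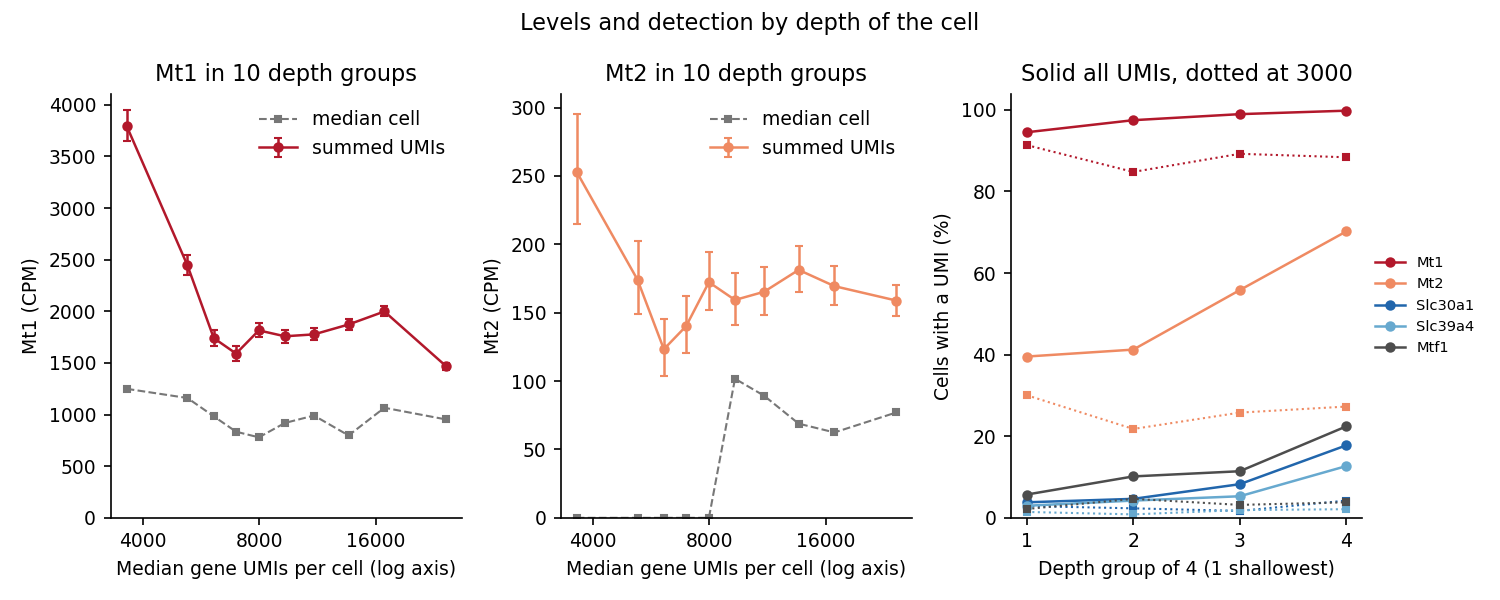
Left and middle, level of Mt1 and of Mt2 (y axis, CPM) in 10 groups of 189 or 190 cells ordered by depth, against their median gene UMIs (x axis, log scale), from summed UMIs with 95% Poisson intervals and for the median cell. Right, share of cells with a UMI (y axis, percent) in the 4 depth groups for each of the 5 genes; Mt1 is at 3796 CPM in the shallowest of the 10 groups and 1468 CPM in the deepest, and the dotted lines at 3000 UMIs are flatter than the solid ones.

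To see where in the cell population the members were high, cells were clustered without the 5 genes and without other metallothionein, zinc and copper genes. This gave 7 clusters of 423, 404, 329, 325, 258, 91 and 62 cells, numbered by size. They are described by their leading genes, since none met the criteria for a cell type name. Cluster 1 was led by Aox3 and Scgb3a1, cluster 2 by Ly6m and Sprr1a, cluster 3 by Ifi27l2b and Gmpr2, and cluster 5 by the chemokine genes Cxcl2 and Cxcl5. Cluster 6 was led by the mitotic genes Aspm and Knl1, and cluster 7 by Cyba and Reg3g. Mt1 itself led cluster 4, although it had not been used to form it, followed by 2610528A11Rik and the hypoxia-responsive genes Ndrg1 and Bnip3. Cluster 2 shared these high levels of 2610528A11Rik, Ndrg1 and Bnip3. Ratios to the rest of the cells were 3.8 for 2610528A11Rik and 3.7 for Ndrg1 in cluster 2, against 2.7 and 2.2 in cluster 4. For Bnip3, clusters 4 and 2 had levels of 543 and 467 CPM, while the remaining clusters ranged from 109 to 223 CPM. Genes that vary with Mt1 did form the clusters, so differences between clusters are descriptions.

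Mt1 was highest in clusters 7 and 4 and lowest in cluster 5. Its level was 903, 2008, 1139, 4371, 683, 1303 and 5776 CPM in clusters 1 to 7. The ratio of the highest to the lowest was 8.46 (8.07 to 8.88). Mt2 was highest in the same pair of clusters, with 276 CPM in cluster 4 and as much as 1031 CPM in cluster 7, against 67.2 to 134 CPM in the other 5. No interval of the other 5 clusters reached those of clusters 4 and 7, for either gene.

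Clusters 4 and 7 differed in their balance of the 2 metallothioneins. Against clusters 1, 2, 3, 5 and 6 together, Mt1 was 3.44-fold higher in cluster 4 (3.36 to 3.52) and 4.55-fold higher in cluster 7 (4.42 to 4.68). Mt2 was 2.78-fold higher in cluster 4 (2.53 to 3.05) and 10.4-fold higher in cluster 7 (9.59 to 11.2). Cluster 7 thus had 5.60 Mt1 UMIs per Mt2 UMI (5.24 to 5.99), where cluster 4 had 15.8 (14.6 to 17.2) and the other clusters 9.73 to 14.98. Cluster 7 made up 3.28% of cells and held 15.9% of all Mt1 UMIs and 31.5% of all Mt2 UMIs, and cluster 4 made up 17.2% of cells and held 25.7% of Mt1.

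Of the zinc transporters, the importer Slc39a4 was also higher in cluster 7. It was at 28.5 CPM there (19.1 to 41.0), from 29 UMIs in 19 of 62 cells, and at 3.23 to 9.28 CPM in the other 6 clusters. Its ratio to clusters 1, 2, 3, 5 and 6 was 4.24 in cluster 7 (2.72 to 6.42) and 0.480 in cluster 4 (0.189 to 1.02). Slc30a1, by contrast, ranged only from 7.63 to 11.3 CPM over all 7 clusters, and its ratios were 0.951 (0.558 to 1.54) in cluster 4 and 0.855 (0.363 to 1.73) in cluster 7. Mtf1 ranged from 9.84 to 16.1 CPM, with ratios of 0.750 (0.461 to 1.16) and 0.728 (0.344 to 1.36). The intervals of both genes held 1 and exclude a difference as large as that of Mt1 or Mt2 in the same cells. Mt3 ran the other way, at 0.318 (0.206 to 0.470) in cluster 4 and 0.261 (0.124 to 0.483) in cluster 7.

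Cluster 7 stood apart from the rest of the library in sex-linked genes. A Y-linked gene had a UMI in 53.2% of its cells and in 0.929% of other cells, and Xist in 29.0% and 78.4%. Its leading genes included the pit cell gene Tff1, the chief cell gene Pgc and the glutathione transferase gene Gsta1. Tff1 was at 4113 CPM, of which 2441 of 4180 UMIs came from 1 cell, and at 1794 CPM without that cell, against 62.4 to 144 CPM in the other clusters. Gsta1 was at 1966 CPM, against 23.9 to 47.1 CPM, and Pgc had 51 UMIs in 14 cells, 25 of them in 1 cell, against 20 UMIs in all other cells. Its tag share, 56.5% of cells with CMO301 highest, was near that of the whole library. The part of the cells' origin in its metallothionein levels was not tested. Without cluster 7 Mt1 was at 1622 CPM and Mt2 at 120 CPM.

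**Figure D4:**
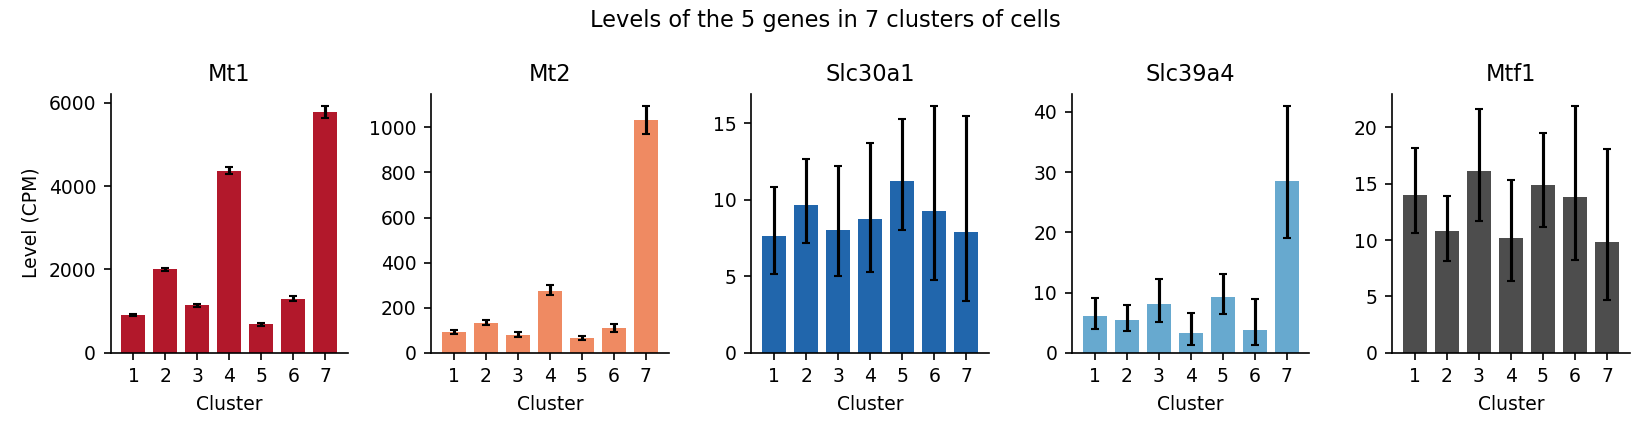
Level of each of the 5 genes (y axis, CPM, a separate scale in each panel) in the 7 clusters (x axis), as bars from summed UMIs with 95% Poisson intervals. Mt1 and Mt2 are highest in clusters 4 and 7 and Slc39a4 in cluster 7, while the intervals of Slc30a1 and of Mtf1 overlap across all clusters.

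The relation of Mt1 to depth depended on which clusters were counted. Cluster 4 was shallow, with a median of 5879 UMIs and 52.3% of its cells in the shallowest group, while cluster 7 was deep, with a median of 14365.5 UMIs. Without cluster 4 the ratio of the shallowest to the deepest group was 0.965 for Mt1 (0.928 to 1.004) and 0.830 for Mt2 (0.725 to 0.948). Without cluster 7 it was 1.95 for Mt1 (1.89 to 2.01) and 1.85 for Mt2 (1.64 to 2.09), and without both clusters it was 1.152 (1.11 to 1.201) and 1.28 (1.103 to 1.48). The 4 groups were drawn anew among the remaining cells each time. The cell with the largest Mt1 share, which was in cluster 2, stayed in the shallowest group with its 234 Mt1 and 40 Mt2 UMIs. Without both clusters that group had 2914 Mt1 and 241 Mt2 UMIs in all, so these ratios rested in part on 1 cell. They were not computed without it. The pooled ratio near 1 for Mt2 thus combined 2 clusters that moved it in opposite directions.

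Within single clusters the ratios of Mt1 lay above 1 in the 4 clusters measured, with an interval that held 1 in cluster 3, and those of Mt2 differed in direction. The ratio for Mt1 between the same shallowest and deepest groups was 1.51 (1.37 to 1.66) in cluster 1, 1.75 (1.62 to 1.88) in cluster 2 and 1.91 (1.64 to 2.22) in cluster 5, and 1.09 (0.984 to 1.21) in cluster 3. Clusters 1, 2 and 5 had Mt2 ratios of 2.02 (1.49 to 2.72), 2.42 (1.85 to 3.12) and 1.94 (1.14 to 3.15), and cluster 3 had one of 0.638 (0.410 to 0.978). The values of cluster 2 rested in part on the cell with the largest Mt1 share. Without it they were 1.26 for Mt1 (1.16 to 1.37) and 1.06 for Mt2 (0.713 to 1.53), and the median cell of cluster 2 had less Mt1 in the shallowest group, 1186 CPM, than in the deepest, 1493 CPM. In clusters 1, 3 and 5 the median cell had more Mt1 in the shallowest group, at 859 against 715, 999 against 787 and 711 against 499 CPM. Clusters 4, 6 and 7 had fewer than 20 cells in one of these groups and were given no ratio. Median mitochondrial shares by depth group were 4.57%, 4.28%, 4.01% and 3.49% from shallow to deep, and their part in the ratio was not tested.

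Cells with high Mt1 had more Mt2 on average, although not every such cell had a Mt2 UMI. Cells thinned to 3000 UMIs were divided into an Mt1-high set, the 525 cells with at least 6 Mt1 UMIs, and an Mt1-low set, the 554 cells with at most 1, which are the cells at or above the 75th and at or below the 25th percentile. These sets are ranges of 1 measure and not cell types, and 84 and 340 cells lay exactly at the limits. Their median depths before thinning, 8689 and 8888.5 UMIs, were close.

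Mt2 was at 390 CPM in Mt1-high cells and 51.1 CPM in Mt1-low cells, a ratio of 7.62 (6.07 to 9.68). A Mt2 UMI was found in 48.6% of Mt1-high cells (44.2% to 52.9%) and 13.9% of Mt1-low cells (11.1% to 17.1%). Of 3196 genes with at least 100 thinned UMIs in the sets, 2.88% were at least 1.5-fold higher in Mt1-high cells and 7.54% at least 1.5-fold lower, and Mt2 had the highest ratio of all. The ratio was 5.76 without cluster 7 and 6.85 without cluster 4. Among cells deeper than the median it was 7.24, and among the others 8.15.

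The other members did not separate the sets at equal depth, where Slc30a1 had 13 and 12 UMIs, Slc39a4 11 and 6, and Mtf1 20 and 19. With all deposited UMIs of the same cells, Slc30a1 had a ratio of 1.24 (0.831 to 1.86) and Slc39a4 of 1.19 (0.771 to 1.83). Mtf1 was lower in Mt1-high cells, at 9.88 against 16.6 CPM, a ratio of 0.597 (0.423 to 0.834). Among 9042 genes with at least 50 such UMIs, 3.97% were at least 1.5-fold higher and 7.74% at least 1.5-fold lower. Of the members other than Mt1, only Mt2 was in the first group and only Mtf1 in the second, and for Mtf1 the thinned counts did not show the difference.

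Mt2 was higher in cells with more Mt1, mainly from 3 Mt1 UMIs upward. Cells with 0, 1 and 2 Mt1 UMIs had a mean of 0.164, 0.147 and 0.179 Mt2 UMIs. With 3 to 5, 6 to 11, 12 to 23 and 24 to 119 Mt1 UMIs the means were 0.272, 0.539, 1.02 and 3.51. The share of cells with a Mt2 UMI was 78.2% in the last group of 87 cells, against 15.4% in cells without Mt1. Mt3 showed no such increase, with 31 UMIs in the 214 cells without Mt1 and 0 UMIs in the 87 cells with most, and its ratio between Mt1-high and Mt1-low cells was 0.570 (0.378 to 0.849).

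**Figure D5:**
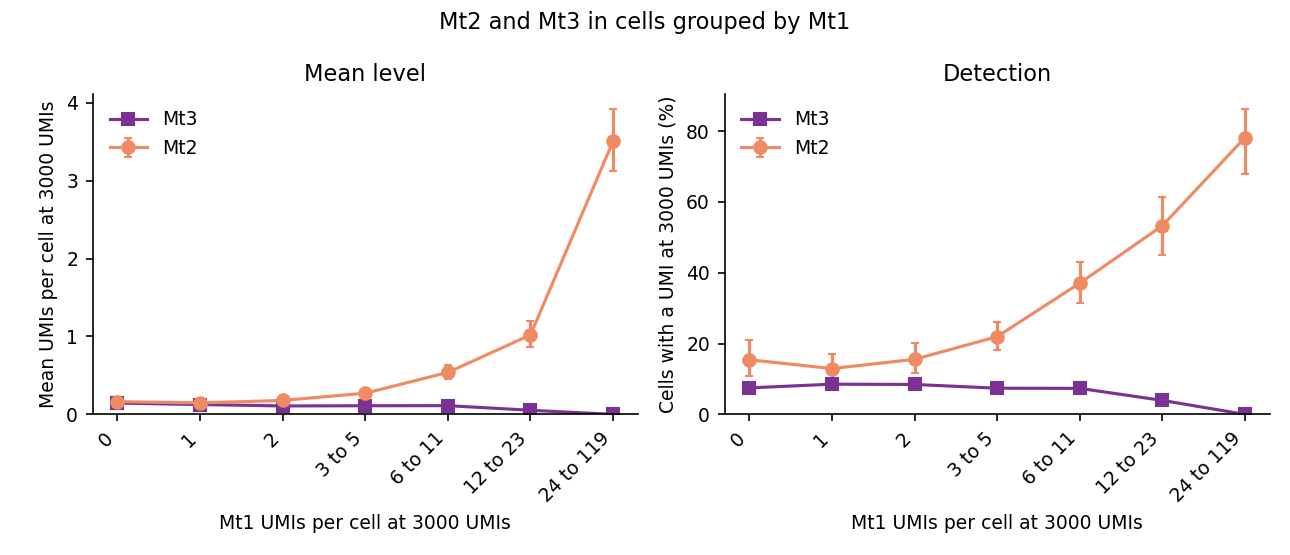
Mean UMIs per cell (left, y axis) and share of cells with a UMI (right, y axis, percent) of Mt2 and Mt3 in groups of cells by their Mt1 UMIs (x axis), in 1835 cells thinned to 3000 UMIs, with 95% intervals for Mt2. Mt2 goes from a mean of 0.164 in cells without Mt1 to 3.51 in cells with 24 to 119 Mt1 UMIs, and Mt3 goes down to 0.

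The overlap was partial. At equal depth 446 cells had a UMI of both Mt1 and Mt2, and 33 had Mt2 without Mt1. Of the 143 cells with 2 or more Mt2 UMIs, 112 were Mt1-high, and 70 were among the 186 cells at or above the 90th percentile of Mt1, which is 49.0% of the first set and 37.6% of the second. The 186 cells came to 45.7% from cluster 4, 23.1% from cluster 2 and 15.6% from cluster 7. Of the 143 cells, 29.4% were in cluster 4, 28.0% in cluster 7, 14.7% in cluster 1 and 13.99% in cluster 2.

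The genes whose pattern was most like that of Mt1 were found by Pearson's r of ln(UMIs + 1) over the 1835 thinned cells, as a description, among 2827 genes with at least 200 thinned UMIs. These cells share 1 library and 1 depth, and counts this sparse lower all values. Mt2 was the most similar, with r = 0.46. Next were the ferritin light chain gene Ftl1 (0.32), the glycolytic genes Gapdh (0.29), Pgk1 (0.27) and Aldoa (0.25), the translation factor gene Eif1 (0.27) and the hypoxia-responsive gene Bnip3 (0.24), followed by Fau, Ero1l and Bri3. The lowest were Tmsb4x, which encodes an actin-binding peptide (-0.33), Prxl2a (-0.27), Ly6a (-0.26), Rhox5 (-0.26) and the cyclin gene Ccnd1 (-0.26).

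For Mt2 the most similar gene was Mt1, followed at a distance by Gsta1 (0.21), Ftl1 (0.19) and Gpx2 (0.18), of which Gpx2 encodes a glutathione peroxidase of gut epithelium. The rest of the 10 highest lay between 0.11 and 0.14, namely Anp32b, the histone gene Hist1h2ap, the microtubule regulator gene Stmn1, the chromatin gene Hmgb2, Ptma and Fxyd3. Values of at least 0.2 in size were reached by 25 genes with Mt1 and 5 with Mt2. Its lowest values were with Ly6a (-0.23), Ly6d (-0.20), Rhox5 (-0.20), Ly6c1 (-0.18) and the water channel gene Aqp5 (-0.16). Between the metallothioneins and Slc30a1, Slc39a4 or Mtf1, r lay between 0.00 and 0.04.

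Besides Mt2, the genes with the highest ratios in Mt1-high cells were Gsta1 (3.15), Ndrg1 (3.05), Ankrd37 (2.97), the trefoil factor gene Tff1 (2.84), the selenium transport gene Selenop (2.64), AA467197 (2.19), the carbonyl reductase gene Cbr1 (2.12), Fam76a (2.09) and Akap8l (2.06). With all deposited UMIs of the same cells Fam76a was below the 1.5-fold line, at 1.37 (1.16 to 1.62), and the other 8 were above it. Of these, Gsta1 and Tff1 rested on cluster 7: without it their ratios were 1.148 (0.763 to 1.73) and 1.11 (0.891 to 1.38), and Tff1 had 39.6% of its UMIs in 1 cell. Ndrg1 was at 3.26 without cluster 7 and also without cluster 4. At the low end stood the serpin gene Serpinb11 (0.264), Mgat4c (0.270), the actin-bundling gene Pls3 (0.312), the basal adhesion gene Bcam (0.335), the protease inhibitor gene Timp3 (0.343), Mras (0.367) and the chemokine gene Cxcl5 (0.368), after Gm21818, B020031M17Rik and Sp110, which had 88.3% to 98.4% of their UMIs in 1 cell.

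Lists of genes known to change with metals, oxygen or stress were read against the same 1.5-fold line, with the median log2 ratio over all 3196 genes at -0.05 and 2.88% of them higher and 7.54% lower. Of 7 hypoxia targets measured, 3 were higher in Mt1-high cells, namely Ndrg1, Bnip3 (2.01) and the glycolytic gene Pgk1 (1.84), and the median log2 ratio of the list was 0.50. All 3 stayed higher without cluster 7, and Bnip3 was at 1.61 and Pgk1 at 1.64 without cluster 4. Of 6 glucocorticoid targets none passed the line in either direction, and the list median was -0.23. Of 7 immediate early and heat shock genes, which dissociation can raise, only Hspa1b passed, downward at 0.622, and the median was -0.19. Its near-identical copy Hspa1a, which had too few UMIs for that count, went upward at 1.76 (1.145 to 2.74), and with all deposited UMIs none of 8 passed, Hspa1b being at 0.790. Of 4 fetal or regenerative genes Anxa1 passed, downward at 0.528, and of 2 proliferation genes Top2a did, at 0.623. This did not hold for the proliferation list with all deposited UMIs, where none of 6 passed, the median log2 ratio was 0.21, and Top2a was at 1.02, Mki67 at 1.31, Cdk1 at 1.45 and Birc5 at 1.44. Mki67, which had too few thinned UMIs for the count, was at 1.69 (1.087 to 2.65) there.

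Copper handling, oxidative stress and zinc transport genes were read in the same way. Of 5 copper handling genes none passed the line, with a median log2 ratio of -0.22. Of 4 targets of the oxidative stress factor NRF2, Gclc was higher (1.64, and 1.26 without cluster 7) and G6pdx lower (0.665). With all deposited UMIs 3 of 7 were higher, Gclc (1.58), Srxn1 (1.69) and Slc7a11 (1.77), none was lower, and the list median was 0.50 against -0.06 over all genes. Gclc, which makes glutathione, is also a known target of MTF1, and the further targets Selenow (1.08) and Csrp1 (1.08) lay near 1. Of the zinc transporters with at least 50 deposited UMIs in the sets, none of 6 exporters and 2 of 11 importers passed the line, Slc39a9 upward (1.81, 1.199 to 2.77) and Slc39a13 downward (0.610, 0.349 to 1.04). With 1 gene of 11 in each direction, against 3.97% and 7.74% of all genes, this is too few to set the importers apart. Of 3 pit cell genes measured at equal depth, where 2.88% of all genes were higher, Tff1 and Gkn2 were higher, and Gkn2 was at 1.29 (0.783 to 2.12) without cluster 7. With all deposited UMIs the pit gene Muc5ac (3.80), the mucous neck gene Tff2 (1.93) and the chief cell gene Pgc (15.8, from 58 and 4 UMIs) were also past the line, and Gkn1 was at 0.801. The ratios of Muc5ac and Pgc rested on cluster 7 and on few cells. Muc5ac was at 0.496 (0.189 to 1.18) without cluster 7 and 1.36 (0.727 to 2.59) without its highest cell, which held 45 of 70 UMIs. Tff2 depended on them less, with UMIs in 42 Mt1-high and 35 Mt1-low cells. Its ratio was 1.47 (1.056 to 2.06) without cluster 7 and 1.43 (1.037 to 1.98) without its highest cell. Pgc had 50 of its 58 UMIs in cluster 7, and was at 2.48 (0.664 to 11.3) without that cluster and 9.002 (3.20 to 35.0) without its highest cell. The immune list had 1 gene with enough UMIs, Lyz2, whose 64 UMIs in Mt1-high cells came from 3 cells, 53 of them from 1 cell, against 0 UMIs in Mt1-low cells.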

How the data were processed

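The authors deposited raw UMI counts, whole numbers per gene and barcode in a filtered single-cell matrix, written with Cell Ranger 6.1.2, per the submitters' processing notes. The labels name a 10x 3′ v2 kit and the submitters' notes GRCm38. The annotation counted against is not given in the sources used here. Barcodes were kept with at least 500 genes and at most 20% mitochondrial UMIs. Scrublet in scanpy 1.11.5 marked 12 of 1892 cells (0.634%) as doublets, which the main values keep. From the counts, CPM with exact Poisson, shares with Clopper-Pearson and ratios with conditional binomial 95% intervals were computed with scipy 1.17.1. PCR duplicates are collapsed by UMIs, and intervals cover counting error only. Thinning drew 3000 UMIs per cell without replacement. Clustering used 2000 variable genes, 30 components, 15 neighbours and Leiden (leidenalg 0.10.2) at resolution 0.6. The members and the metallothionein, zinc, copper, MTF1 target, cell cycle, sex-linked and mitochondrial genes were left out of the variable genes. Ratios were tested on simulated data. The intervals were tested only on counts drawn with counting error alone, which says nothing about their cover of the spread between cells. Members and gene lists were chosen with earlier results of these data known. Named genes are the members, family and transporter genes, list genes past 1.5-fold, the 10 highest and 5 lowest correlations, the 10 highest and lowest ratios, and leading cluster genes. Alternatives varied the cell filter, doublets, library size, tags, thinning, depth groups and clustering, and the omission of clusters 4 or 7, ratios within clusters, unthinned sets, single cells left out, tie-free sets and medians over cells were added after seeing the data. Words of 31 bases from the last 300 transcript bases occurred in another gene only for Mt2 (3 of 270, in Pip5k1a).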

Additional observations from a re-analysis of the deposited data

How the results depend on the processing

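No paired analysis was possible because the data are 1 library. A result counted as unmoved when it stayed inside its 95% counting interval, or within 1.5 times for spread and counts. Over 204 recomputed values of 24 results, 145 were unmoved, 58 moved and 1 ratio whose interval excluded 1 crossed 1, the Mt1 ratio of shallow to deep cells, 1.59, which was 0.965 without cluster 4. Depth ratios whose intervals held 1 crossed it in 7 other values, for Mt2 at 0.947 with the strict filter, 0.987 between cells below and above the median, 0.830 without cluster 4 and 0.973 without the cell with the largest Mt1 share, for Slc30a1 at 1.012 in 10 groups and 1.26 in CMO301 cells, and for Slc39a4 at 1.39 in 10 groups. The Mt1 ratio was 1.53 without that cell, 1.95 without cluster 7, 2.59 between the extremes of 10 depth groups, 1.198 between cells below and above the median depth, 1.46 with at least 1000 genes and at most 10% mitochondrial UMIs, 1.67 with no filter, 1.74 and 1.36 in CMO301 and CMO302 cells, 1.75 with depth as detected genes, 1.69 from means and 1.18 from medians over cells. The Mt1 level of 1832 CPM was 1865 and 1792 CPM in the tag sets, 1622 without cluster 7, 2040 as a mean over cells and 3060 with a library size without mitochondrial and ribosomal protein genes. For Mt2, 165.6 CPM, these were 176, 152, 120, 173 and 276 CPM. The Mt1 Fano factor of 16.9 was 54.8 on unthinned UMIs and 9.80 without cluster 4. The Mt1 ratio of the highest to the lowest cluster, 8.46, was 3.63 at resolution 0.3, which gave 3 clusters, and 9.93 at resolution 1.0, which gave 11. At resolution 0.3 the cells of cluster 7 fell into a cluster of 155 cells, and its ratios to all other cells were 1.98 for Mt1 (3.56 at the main resolution), 4.23 for Mt2 (8.63) and 2.49 for Slc39a4 (4.50). The Mt2 ratio between Mt1-high and Mt1-low cells, 7.62, was 14.0 between the 10% of cells at each end, 5.26 when divided at the median, 5.76 without cluster 7, and 3.06 for Mt1 when cells were divided by Mt2. Between cells below and above the median depth, 44 genes were 1.5-fold higher and 323 lower in shallow cells, against 193 and 891 between the extremes of 4 groups. Genes 1.5-fold higher and lower in Mt1-high cells, 92 and 241 of 3196, numbered 83 and 135 of 1320 between the 10% of cells at each end (6.29% and 10.2%), 69 and 98 of 4754 on Mt2, 65 and 132 of 1793 in deeper and 57 and 112 of 1710 in shallower cells, 203 and 454 of 7161 unthinned (2.83% and 6.34%), and 71 and 119 of 2929 without cluster 4. Depth limits the 3 rare genes most, with 150 to 261 UMIs in all.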
